A study of Mus musculus with 2 samples.

Results

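The genes described here make cholesterol in the cell, control that synthesis, store the product, or carry sterols across the membrane. There were 29 of them among the 32285 genes of the count tables, chosen by name: 8 enzymes of the early steps from acetyl-CoA to squalene, 10 enzymes of the late steps from squalene to cholesterol, 4 control genes, 3 genes of handling inside the cell and 4 membrane transporters. All 29 were listed in both tables. They were measured by single-cell RNA-seq in EpCAM+ cells sorted from mouse intestinal crypt preparations, with 1 library for WT and 1 library for MG53-TG, both on day 7 of 2.5% dextran sulfate sodium (DSS), a salt in the drinking water that injures the gut lining. MG53-TG mice overexpress MG53 (TRIM72, a membrane repair protein of muscle) throughout the body, and the WT mice are their littermates. The study states that several mice per genotype were used, but the cells carry no label of their mouse, so each library counts as 1 sample. Neither the promoter of the transgene nor the age of the mice is given in the sources used here, and no library without DSS was analysed here.

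With 1 library per genotype there are no replicates. No test between genotypes was made, and what follows compares 1 library with the other. Kept cells numbered 6963 in WT and 4941 in MG53-TG, with 108864593 and 91252276 unique molecular identifiers (UMIs, each standing for 1 captured RNA molecule), and 6119 and 4606 of them fell into epithelial clusters. Of all barcodes with 500 UMIs or more, 46 occurred in both libraries. Median depth per kept cell was 14035 UMIs for WT, below the 17950 of MG53-TG. Levels are given in CPM, the UMIs of a gene divided by all UMIs of the summed cells and scaled to counts per 1e6, and ratios are MG53-TG over WT. Trim72, which encodes MG53, was at 0.594 CPM in WT epithelial cells against 50.8 in MG53-TG, and Epcam, the marker of the sort, at 567 against 600.3. Intervals are at 95% and cover counting error only. Beyond 25% mitochondrial UMIs, a limit set by the study, lay 33.7% of WT and 46.1% of MG53-TG barcodes of sufficient depth.

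Cholesterol is built from acetyl-CoA through mevalonate, isoprenoid units and squalene, which is closed into a ring and trimmed to the final sterol. SREBP-2, encoded by Srebf2, is held in the endoplasmic reticulum by SCAP and INSIG while sterols are plentiful, and is released to switch on the enzymes when they run low. The intestine also takes up cholesterol from food and bile. In enterocytes, NPC1L1 brings it in, ABCG5 with ABCG8 pumps sterols back to the lumen, ABCA1 exports them on the side of the blood, and the enzymes SOAT1 and SOAT2 turn free cholesterol into esters for storage or for packing into lipoproteins.

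Since SREBP proteins act at short promoter sequences, the promoter windows of the members are shown first for the letters of that sequence. Windows from RefSeq (build GRCm38.p6, 250 bases before to 50 after each start) were found for 24 of the 29 genes. The classical sterol regulatory element was searched as TCACNCCAC on both strands and its first 8 letters, TCACNCCA, likewise, so every match to the longer form is also one to the shorter. The longer form occurred in 1 member, Hmgcs1, and in 1.44% of all genes with a window. The shorter form occurred in 3 members, Hmgcs1, Msmo1 and Srebf2, and in 4.97% of all genes. Stretches around the 3 matches are given on the strand of the gene, with the shorter form in capitals. They lie at chr13:119690194-119690241 (plus strand), chr8:64733728-64733775 (minus strand) and chr15:82147087-82147134 (plus strand). The matches begin 137, 177 and 162 bases before the RefSeq start. In GENCODE M21, Msmo1 begins at 64733792 on the minus strand, so its match lies inside that gene model.
Hmgcs1: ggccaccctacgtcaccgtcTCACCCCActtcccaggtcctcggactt
Msmo1: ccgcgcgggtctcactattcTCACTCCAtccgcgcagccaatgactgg
Srebf2: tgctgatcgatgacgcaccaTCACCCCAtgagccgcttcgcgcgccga
The CCAAT box, the letters CCAAT on either strand, was in the windows of 21 of the 24 members and of 14 of the 15 matched synthesis genes, against 41.1% of all genes. These are matches of letters and not measured binding.

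In the sum of all epithelial cells, most members had higher CPM in MG53-TG, by little. All 29 passed the minimum of 30 UMIs over both libraries. The log2 ratio was above 0 for 23 members and below 0 for 6, where 64.5% of all genes were above 0, with a median of 0.15, where the median of all 14654 genes with that minimum was 0.089. A gene was called higher when its CPM was at least 25% above WT and lower when it was at least 20% below, a rule of size and not a test. Called higher were 5 members, and 18.3% of all genes were called in that direction. Called lower were 0 members, and 7.47% of all genes. The 5 were Soat1, Hmgcs1, Abca1, Fdft1 and Cyp51, a share of the 29 near that of genes at large.

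Soat1, the cholesterol esterification enzyme of most tissues, was the member with the highest ratio, with a CPM of 22.0 in WT against 35.6 in MG53-TG, 1.61-fold (log2 ratio 0.69, interval 0.61 to 0.77). Hmgcs1, the cytosolic HMG-CoA synthase that commits acetyl units to the pathway, had 149.3 and 212 CPM (1.42-fold, log2 ratio 0.51). Abca1 had 3.92 and 5.14 CPM (1.31-fold). Fdft1, the squalene synthase, had 59.04 and 76.7 CPM (log2 ratio 0.38). Cyp51, which removes a methyl group from lanosterol, had 85.5 and 109.5 CPM (1.28-fold). With MG53-TG levels and the type shares of WT, only Soat1 of these 5 was still past the limit of a call, with a log2 ratio of 0.62, and the others were at 0.28 (Hmgcs1), 0.23 (Abca1), 0.16 (Fdft1) and 0.13 (Cyp51). Below 0 with intervals that did not reach 0 were Acat2 (log2 ratio -0.19), Nsdhl (-0.16) and Pmvk (-0.076). Acat2 is here the cytosolic acetoacetyl-CoA thiolase of the first step and not the sterol acyltransferase that once had this name. Nsdhl removes a carbon from ring methyl groups late in the pathway, and Pmvk adds a phosphate to mevalonate phosphate.

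**Figure D1:**
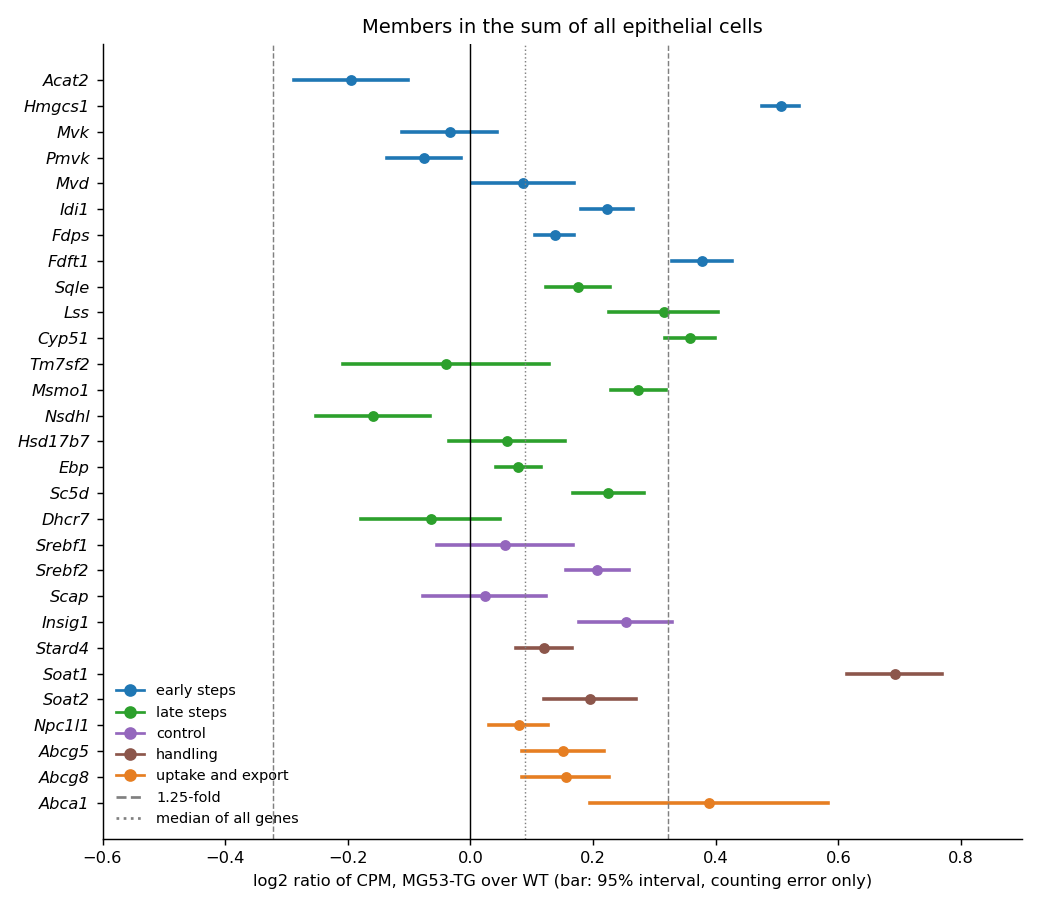
Log2 ratio of CPM, MG53-TG over WT, of the 29 genes in the sum of all epithelial cells, coloured by role, where points are ratios and bars are 95% intervals for counting error only. Dashed lines mark the limits of a call (25% higher, 20% lower) and the dotted line the median of all genes (0.089). Soat1 (0.69) and Hmgcs1 (0.51) lie farthest to the right, and no gene lies beyond the dashed line on the left.

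The 18 synthesis genes together gave 1019.5 CPM for WT (interval 1013 to 1026). For MG53-TG they gave 1188 CPM (interval 1181 to 1195), a log2 ratio of 0.22. The median ratio of the single genes was 0.11, with a median lower bound of 0.073 and upper bound of 0.17, and 12 of the 18 were above 0. Early steps (median 0.11) and late steps (median 0.13) differed little from each other. The difference between sums also depended on how the captured cells were divided among types, which rests on 1 preparation per genotype. Goblet-like cells, where the genes were high, made up 18.7% of WT epithelial UMIs against 32.4% of those from MG53-TG, and Paneth-like cells, where they were low, made up 11.9% and 6.56%. With WT levels in each type and the type shares of MG53-TG, the sum was 1123 CPM, a log2 ratio of 0.14 over WT. With MG53-TG levels and WT shares, it was 1059 CPM, a log2 ratio of 0.055. When every type had equal weight, the median ratio of the synthesis genes turned below 0, to -0.056.

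Levels differed far more between cell types than between libraries. In WT, summed synthesis was highest in tuft-like cells at 1748 CPM, followed by goblet-like (1474), secretory progenitor-like (1266), absorptive progenitor-like (1175) and stem-like cells (969). Enteroendocrine-like cells (726) and enterocyte-like cells (725) came next with intervals that overlapped, and Paneth-like cells were lowest at 197 CPM. All other neighbours in this order had intervals apart from each other. In MG53-TG, goblet-like cells at 1683 CPM stood above tuft-like cells at 1584, and the order of the other 6 types was the same. Each of the 18 synthesis genes had its lowest level in Paneth-like cells in both libraries. These are secretory cells of the crypt base whose RNA is dominated by defensins, and their 10 most abundant genes took 68.0% of UMIs in WT and 66.7% in MG53-TG, which lowers the CPM of all other genes. In the other types that share was between 8.15% and 26.1%.

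Free RNA limits what can be read from low levels. The WT table also holds empty droplets, and barcodes with at most 99 UMIs gave a sum of 700.2 CPM for the 18 synthesis genes (interval 679 to 722). Enterocyte-like and enteroendocrine-like cells were close to that sum, and Paneth-like cells were under it. A gene at or below its own empty-droplet level is not read as expressed in that type, and its difference between libraries there is given as a value only. This was so in both libraries for 28 of the 29 members in Paneth-like cells (all but Soat1), for 17 in enteroendocrine-like cells and for 10 in the enterocyte-like type, and for 6 to 9 in each of the other types. In enterocyte-like cells it was so in at least 1 library for 13 of the 18 synthesis genes. The MG53-TG table starts at 500 UMIs per barcode, so no such level could be had for it.

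Over the 8 types, each synthesis gene followed the sum of the other synthesis genes. Pearson's r of log2 CPM was between 0.73 (Tm7sf2) and 0.99 (Mvd and Cyp51) in WT, and between 0.67 (Tm7sf2) and 0.99 (Mvd) in MG53-TG. These values describe 8 types that share 1 library each and include the low Paneth-like point. Tm7sf2, one of the sterol C14 reductases, stood apart through its high level in tuft-like cells (25.2 CPM in WT and 23.9 in MG53-TG, with at most 11.2 in any other type). Of the control genes, Srebf2 followed the sum (0.88 and 0.91), whereas Scap was lower (0.49 and 0.64). Soat1, Soat2 and the 4 transporters did not track the sum, with r between -0.35 and 0.32.

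**Figure D2:**
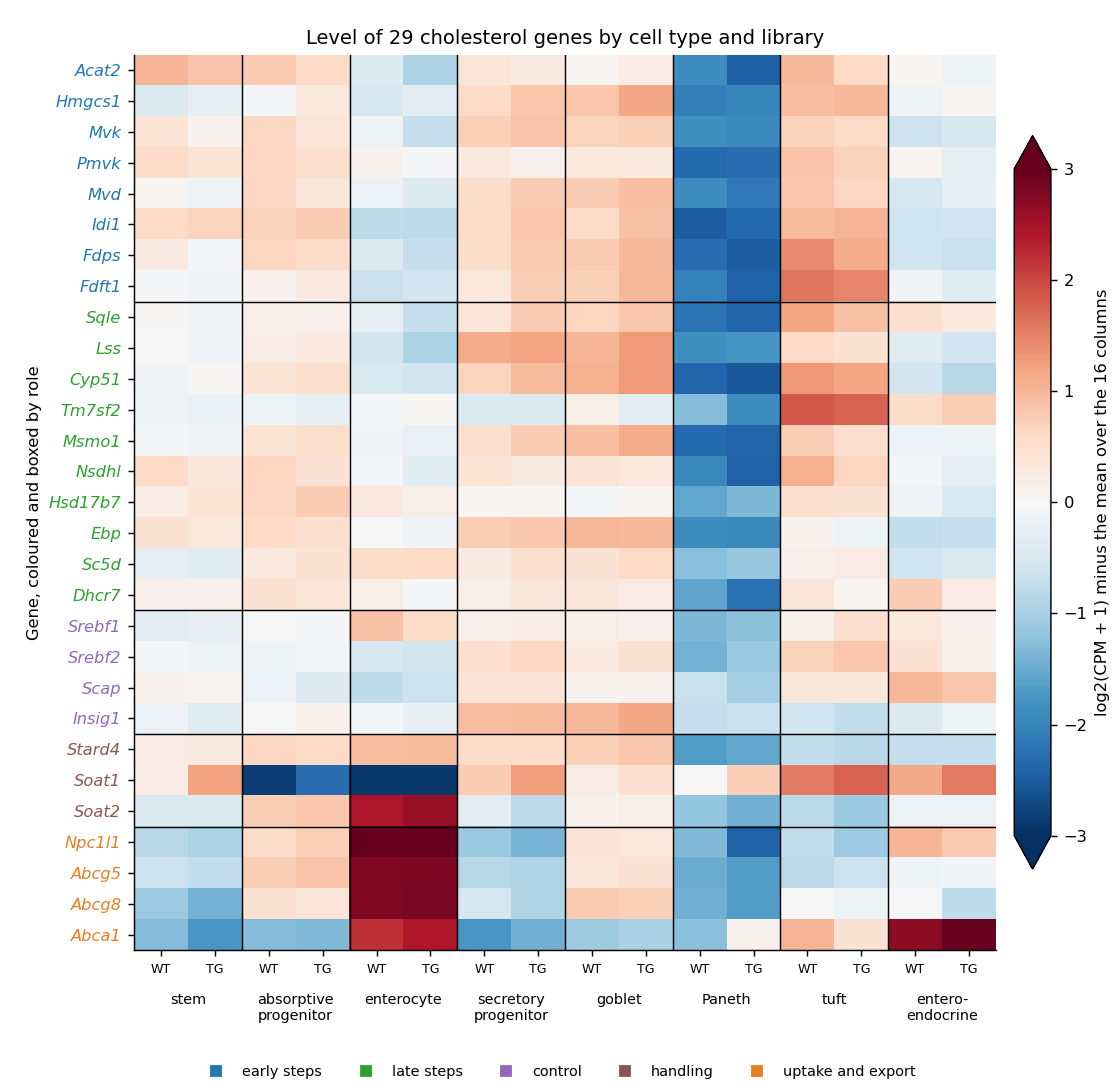
Level of each of the 29 genes in 8 cell types and both libraries, as log2(CPM + 1) minus the mean of that gene over the 16 columns, so that red is above and blue below the gene's own mean. Rows are boxed by role. Blue Paneth columns run through all synthesis rows, Soat1 and Soat2 show opposite colours in enterocyte-like cells, and the transporter rows are red there.

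Within types, the median ratio of the synthesis genes was above 0 in goblet-like and secretory progenitor-like cells and below 0 in the other 6 types. The median lower and upper bounds excluded 0 only in goblet-like cells (0.032 to 0.28). In secretory progenitor-like cells they were -0.062 and 0.40. In goblet-like cells, which make mucus, the sum went with a log2 ratio of 0.19 (interval 0.17 to 0.21, from the 1474 and 1683 CPM above), the median ratio was 0.16, and 13 of 18 genes were above 0, where 60.2% of all genes were. This direction held in the 4 clusters of that type, with log2 ratios of the sum between 0.12 and 0.28. Hmgcs1 was the member with the highest ratio (263 and 329 CPM, log2 ratio 0.32, interval 0.27 to 0.37), and Tm7sf2 had the lowest (7.20 and 4.77 CPM, log2 ratio -0.59), the latter level being under the 4.85 CPM of empty droplets. These were the only members called in goblet-like cells, 1 higher and 1 lower, where 8.77% of genes were called higher and 8.19% lower. Hmgcs1 was only just past the limit of a call, and under 8 other cell filters and clusterings its ratio was between 0.24 and 0.38, under the limit with a higher UMI minimum, at resolutions 0.5 and 2, and with each library clustered alone. The summed level of 11 T or NK cell markers was also unequal there, with 39.05 CPM for WT, where 11 of 11 were detected, and 5.73 for MG53-TG, where 10 of 11 were and Trdc was at 0. The clusters that are not epithelial had 48033 and 52636 CPM of the same markers. The part of these RNAs in the result was not tested.

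In secretory progenitor-like cells the synthesis sum was 1266 and 1462 CPM (log2 ratio 0.21, interval 0.17 to 0.25), with 14 of 18 genes above 0, where 63.8% of all genes were. Of its 2 clusters, cluster 8 had a log2 ratio of 0.25 and the cycling cluster 20 one of 0.039, with an interval that included 0. Fdft1 (69.5 and 92.8 CPM, log2 ratio 0.42) and Sqle, the squalene epoxidase (70.0 and 91.7 CPM, 0.39), had the highest ratios among synthesis genes. Soat1 was above both (0.50), and Soat2 was lowest of the members (12.5 and 9.01 CPM, log2 ratio -0.47, interval -0.96 to 0.010), with both levels under that of empty droplets. The T or NK markers summed to 31.6 CPM there in WT against 7.04 in MG53-TG, with 10 of 11 detected and Cd3e at 0 in the latter, and their part was again not tested.

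In enterocyte-like cells, the absorptive cells of the villus, the synthesis sum was 725 and 675 CPM (log2 ratio -0.10, interval -0.14 to -0.065), both close to the sum in empty droplets. The median ratio was -0.14, and 14 of 18 genes were below 0, where 61.0% of all genes were above. Called lower were 6 members, where 9.02% of all genes were, and called higher were 0 members, where 12% of all genes were. The 6 were Acat2 (11.6 and 7.62 CPM, log2 ratio -0.61), Mvk (-0.59), Lss (-0.47), Sqle (-0.42), Srebf1 (-0.34) and Nsdhl (-0.34). In MG53-TG all 6 were under their empty-droplet levels, and in WT Acat2 and Lss were too, so these values are not read as differences in expression. Mvk is the mevalonate kinase and Lss closes squalene epoxide into lanosterol. Abca1 had the highest ratio (0.23, interval -0.021 to 0.48). The direction of the sum depended on the clustering: with each library clustered alone, it was 638 and 689 CPM, a log2 ratio of 0.11, while the median ratio of the genes stayed below 0 under the 13 alternatives (-0.24 to -0.020). Of the 4 enterocyte-like clusters, the sum was higher in MG53-TG in cluster 10, led by Apoa4 and Ada (412 and 456 CPM), lower in cluster 5, led by S100g (848 and 748 CPM), and in cluster 17 (408 and 366 CPM), and nearly level in cluster 12 (975 and 968 CPM). In clusters 10 and 17 the sums of both libraries were under that of empty droplets (700.2 CPM), so their directions are given as values only. The T or NK markers, all 11 detected in both libraries, summed to 34.8 and 15.95 CPM.

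Stem-like cells gave 969 and 926 CPM (log2 ratio -0.066, interval -0.099 to -0.034), a median ratio of -0.077 (0.037 with clustering at resolution 2), and 13 of 18 synthesis genes below 0, where 57.0% of all genes were above. The 2 stem-like clusters differed in sign, with -0.11 in the cycling cluster 3 and 0.051 in cluster 9, which was led by Olfm4 and whose interval included 0. Sums in cluster 9 (672 and 696 CPM) were close to that of empty droplets (700.2 CPM). Fdps, which joins isoprenoid units into farnesyl pyrophosphate, was lower in MG53-TG (146.4 and 118 CPM, log2 ratio -0.31). Called higher was 1 member (Soat1), where 10.2% of all genes were called higher. Called lower were 2 members (Mvk and Abcg8), where 6.81% of all genes were. Abcg8 had the lowest ratio (6.88 and 5.21 CPM, -0.40), with an interval that reached above 0 and both levels under that of empty droplets. The summed T or NK markers, all 11 of them detected in both libraries, were at 15.5 and 4.52 CPM.

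Absorptive progenitor-like cells had 1175 and 1205 CPM (log2 ratio 0.036), but their clusters went opposite ways, with 0.19 in cluster 7 (interval 0.14 to 0.24), -0.14 in the cycling cluster 13 (interval -0.19 to -0.081) and 0.022 in cluster 4. Among them, Mvd had the lowest ratio (30.2 and 24.5 CPM, log2 ratio -0.30) and Soat1 the highest (2.82 and 4.46 CPM, 0.66, both under its empty-droplet level). Paneth-like (197 and 185 CPM) and enteroendocrine-like cells (726 and 704 CPM) had log2 ratios of the sum whose intervals included 0. In Paneth-like cells Npc1l1 was the lowest member (11.7 and 4.92 CPM, log2 ratio -1.25, both under the empty-droplet level) and Soat1 the highest (26.2 and 43.6 CPM, 0.73). The T or NK markers there summed to 21.8 and 5.77 CPM, with 11 of 11 detected in WT and 8 of 11 in MG53-TG (Cd3e, Trdc and Coro1a at 0), and their part was not tested. In enteroendocrine-like cells these were Abcg8 (15.4 and 8.75 CPM, with an interval that included 0 and both under the empty-droplet level) and Abca1.

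Tuft-like cells, the chemosensory cells of the epithelium, had the highest synthesis level of WT and a lower one in MG53-TG. The log2 ratio was -0.14 (interval -0.20 to -0.087), and with doublets kept it was -0.039 with an interval that included 0. Their 2 clusters went opposite ways. Cluster 15, led by Nrgn and Siglecf, had 1904 CPM in 163 WT cells against 2025 in 193 MG53-TG cells. Marker sums differed in that cluster, with goblet markers at 5411 and 1823 CPM and T or NK markers at 1423 and 1121, and their part was not tested. Cluster 21, led by Nrep, Gng13 and Pou2f3, had 1427 CPM in 68 WT cells against 663 in 92 MG53-TG cells. Its log2 ratio, -1.11 (interval -1.23 to -0.98), was the largest departure among the 21 epithelial clusters. The MG53-TG sum in cluster 21 was under that of empty droplets (700.2 CPM, interval 679 to 722), so the size of this ratio is given as a value only. In cluster 21, Fdps was at 232 CPM in WT and 82.2 in MG53-TG, Cyp51 at 131 and 51.5, and Hmgcs1 at 177 and 86.8. The MG53-TG levels of Fdps and Hmgcs1 were under those of empty droplets (95.8 and 105.2 CPM), and that of Cyp51 was just above (49.3 CPM). Marker sums of cluster 21 differed too. Its stem markers summed to 365 CPM in WT and 639 in MG53-TG, its secretory progenitor markers to 364 and 1016, its goblet markers to 1219 and 2408, its tuft markers to 13272 and 9867, and its T or NK markers, some of which tuft cells express themselves, to 596 and 92.2. The part of these in the difference was not tested. Srebf1 was the member with the highest ratio in tuft-like cells (0.40) and Abca1 the lowest (-0.70), both with intervals that included 0 and with levels under those of empty droplets.

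**Figure D3:**
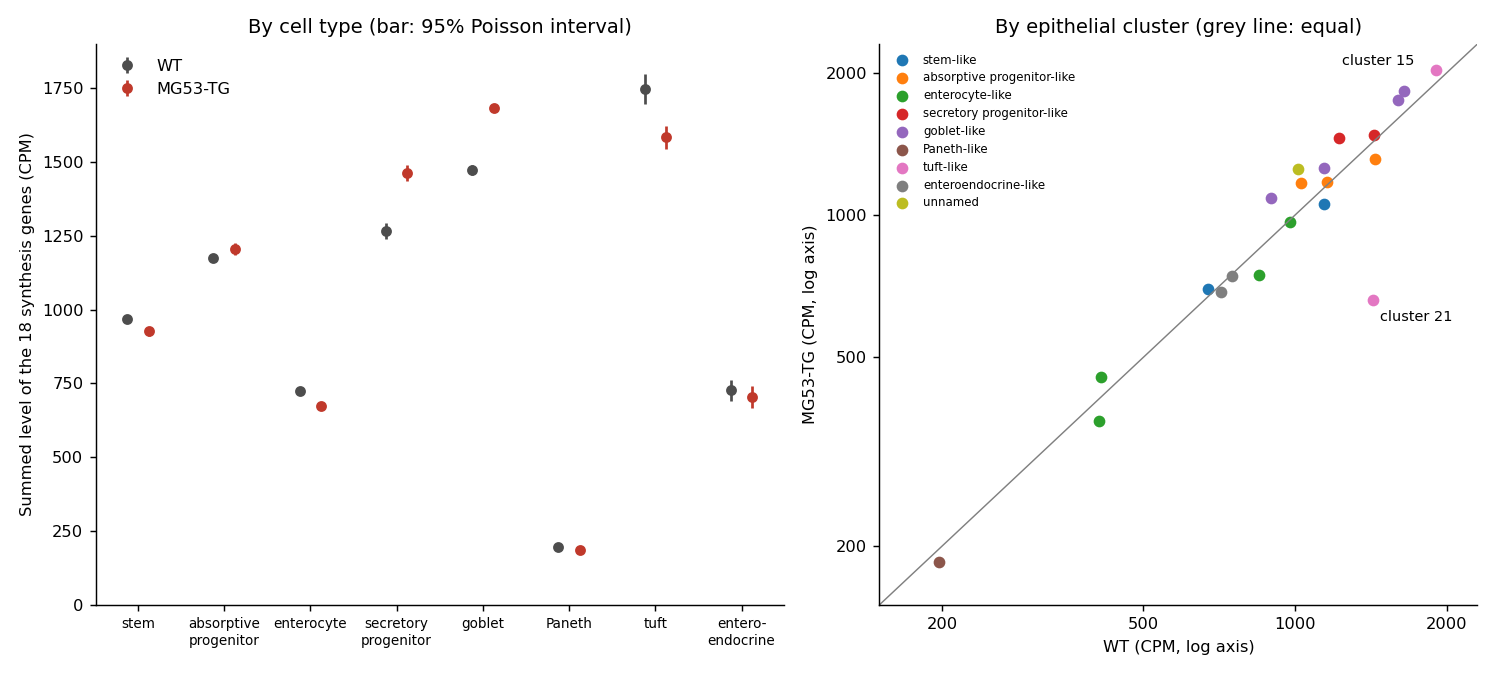
Left, summed CPM of the 18 synthesis genes by cell type, with 95% Poisson intervals, WT in grey and MG53-TG in red. Right, the same sum in each of the 21 epithelial clusters, WT against MG53-TG on log axes, with a grey line of equal levels. The tuft-like cluster 21 (1427 and 663 CPM) lies far below the line, and goblet-like clusters lie above it.

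Few members kept 1 direction over all 8 types. Of the 28 that passed the minimum in every type, Hmgcs1 and Soat1 were higher in MG53-TG in all 8, where 8.33% of the 7948 genes that passed in all 8 types were, and Nsdhl was lower in all 8, where 1.85% were. These counts include types with levels under those of empty droplets. For Soat1 these were enterocyte-like and absorptive progenitor-like cells (empty-droplet level 17.7 CPM), for Hmgcs1 Paneth-like cells and WT enterocyte-like cells (105.2 CPM), and for Nsdhl Paneth-like cells and, in MG53-TG, enterocyte-like and enteroendocrine-like cells (15.1 CPM). Hmgcs1 ratios were between 0.052 (tuft-like) and 0.37 (absorptive progenitor-like), and 5 of the 8 intervals lay above 0. Within clusters Hmgcs1 was higher in 18 of 21. Nsdhl ratios were between -0.66 (Paneth-like) and -0.059 (goblet-like), with 4 of 8 intervals below 0. Idi1, the isomerase of isopentenyl units, and Sc5d, a late desaturase, were higher in 7 of 8 types, and Acat2 and Pmvk lower in 7 of 8. Types with levels under those of empty droplets in both libraries are again among the 8. For Idi1 and Acat2 they were enterocyte-like, Paneth-like and enteroendocrine-like cells. For Sc5d they were stem-like, Paneth-like and enteroendocrine-like cells, and for Pmvk Paneth-like cells. The isomerase Ebp stayed between -0.23 and 0.066 over the types, Msmo1, a sterol methyl oxidase, between -0.22 and 0.24, and the ketosteroid reductase Hsd17b7 between -0.32 and 0.23. Dhcr7, which makes cholesterol from its last precursor in 1 branch, was lower in 6 of 8 types, with every interval including 0.

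The control genes differed little between libraries. Srebf2 had 57.9 and 66.8 CPM over all epithelial cells (log2 ratio 0.21), and Insig1, itself a target of SREBP proteins, 26.4 and 31.4 CPM (0.25). Scap had 16.6 and 16.9 CPM, and Srebf1, the gene of the isoforms that favour fatty acid synthesis, 13.4 and 13.9 CPM. For both, the interval included 0. By type, Insig1 was highest in goblet-like cells (46.0 and 51.1 CPM). Srebf1 was highest in enterocyte-like cells (24.5 and 19.3 CPM), and most of its difference there lay in cluster 10 (60.1 CPM in WT and 27.5 in MG53-TG, log2 ratio -1.13, interval -1.62 to -0.66), against 17.2 and 16.4 CPM in cluster 5. WT empty droplets had 19.9 CPM of Srebf1 and 29.4 of Insig1, both above the WT epithelial mean, so lower levels of these 2 genes are close to that of free RNA. Scap was highest in enteroendocrine-like cells (36.1 and 32.1 CPM).

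Soat1 and Soat2 were highest in different cell types. Soat1 (chromosome 1, 156424525 to 156474331, minus strand) was highest in tuft-like cells (76.5 CPM in WT and 90.2 in MG53-TG) and enteroendocrine-like cells (57.7 and 78.3), and lowest in enterocyte-like cells at 2.59 and 2.60 CPM. Soat2, the form of enterocytes and hepatocytes, was highest in enterocyte-like cells (90.3 and 103.6 CPM) and had at most 28.9 CPM in any other named type, under its level in empty droplets.

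In stem-like cells Soat1 stood at 30.5 CPM for WT (interval 28.2 to 32.9) against 60.6 for MG53-TG (interval 56.5 to 65.01), and the log2 ratio was 0.99 (interval 0.84 to 1.14), the highest of any member in any type with 30 UMIs. It was seen in both stem-like clusters, with 20.8 and 42.1 CPM in cluster 3, and 47.4 and 93.1 CPM in cluster 9. Under 8 other cell filters and clusterings the ratio was between 0.77 and 1.14. Over all epithelial clusters, Soat1 was higher in MG53-TG in 14 of the 15 that passed the minimum, with a median log2 ratio of 0.44, and 8 of those intervals lay above 0. Stem markers were unequal in the same clusters, at 1584 CPM in WT and 2127 in MG53-TG in cluster 3, and 3353 and 4801 in cluster 9. Goblet markers were at 1196 and 1908 CPM in cluster 3 and, the other way, at 1160 and 795 in cluster 9. Secretory progenitor markers were at 101 and 143 CPM in cluster 3, and at 179 and 191 in cluster 9. The part of these markers was not tested. Stard4, which moves cholesterol between membranes inside the cell, had 75.8 and 82.3 CPM in all epithelial cells and kept within -0.094 and 0.13 over the types.

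The transporters marked enterocyte-like cells and differed little between the libraries there. Npc1l1 had 268 CPM in WT and 259 in MG53-TG, Abcg5 129 and 131, Abcg8 114 and 117, and Abca1 16.6 and 19.4, and all 4 intervals of the ratio included 0. In the other 7 named types Npc1l1, Abcg5 and Abcg8 were at most 63.5 CPM, which is under the level of free RNA. The WT empty droplets contained 110 CPM of Npc1l1, 88.0 of Abcg5, 66.7 of Abcg8 and 61.1 of Soat2, all above the WT epithelial mean. The 18 synthesis genes were each below their epithelial mean in those droplets. Levels of these 4 genes in the other named types are therefore not read as expression, nor is their difference between libraries there. Npc1l1 UMIs per Abcg5 UMI in enteroendocrine-like cells were 3.89 in WT (interval 2.70 to 5.75) and 3.14 in MG53-TG (interval 2.13 to 4.74). The other named types lay between 1.42 (secretory progenitor-like) and 2.08 (enterocyte-like) in WT. In MG53-TG they lay between 1.0 (Paneth-like) and 1.97 (enterocyte-like). The WT empty droplets held 659 UMIs of Npc1l1 and 526 of Abcg5 (interval of their ratio 1.12 to 1.41). WT goblet-like and Paneth-like cells also had intervals above that one. The part of free RNA in these ratios was not tested. Abcg5 and Abcg8 overlap on opposite strands of chromosome 17 (84676302 to 84683011). That stretch holds the start of both genes and lies away from the 3′ ends that these libraries tag. Whether strand was used in counting is not stated, and the part of any reads from the stretch was not tested.

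Among the enterocyte-like clusters, Npc1l1 was highest in cluster 10 (640 and 627 CPM), followed by cluster 12, which was led by the ileal gene Fabp6 (352 and 381), cluster 17 with Leap2 and Slc2a2 (228 and 206), and cluster 5 (151 and 130). Abcg5 and Abcg8 covered a narrower range, 88.9 to 231 CPM and 83.1 to 195 CPM in WT, and the WT ratio of Npc1l1 to Abcg5 UMIs was 2.77 in cluster 10, 2.62 in cluster 12, 1.47 in cluster 17 and 1.70 in cluster 5. The unnamed cluster 14 of shallow cells, with the ileal genes Slc10a2 and Fgf15, had 647 and 742 CPM of Npc1l1, 194 and 128 of Abcg5, and 173 and 134 of Abcg8, all above the empty-droplet levels.

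Abca1 was the transporter with another pattern. Among the types as a whole it was highest in enteroendocrine-like cells, at 24.2 CPM in WT and 36.0 in MG53-TG (log2 ratio 0.57, interval 0.047 to 1.10), and there it lay in cluster 18, with the hormone genes Sst, Gip and Cck (34.2 and 48.6 CPM, from 51 and 72 UMIs). Within cluster 18 the log2 ratio was 0.51, with an interval that included 0 (-0.030 to 1.05). The enterochromaffin-type cluster 19, led by Tph1 and Tac1, had only 4 and 2 UMIs. Empty droplets of WT had 9.87 CPM of Abca1. Enterocyte-like cluster 10 was higher still, with 40.9 and 54.4 CPM, and the unnamed cluster 14 had 42.8 and 27.2 CPM. In cluster 12 it was 21.9 CPM in WT and 40.5 in MG53-TG (log2 ratio 0.89, interval 0.41 to 1.37), and in cluster 5 it was 5.88 and 2.92 CPM, under the empty-droplet level. Only 4 of the 8 types reached 30 UMIs of this gene.

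**Figure D4:**
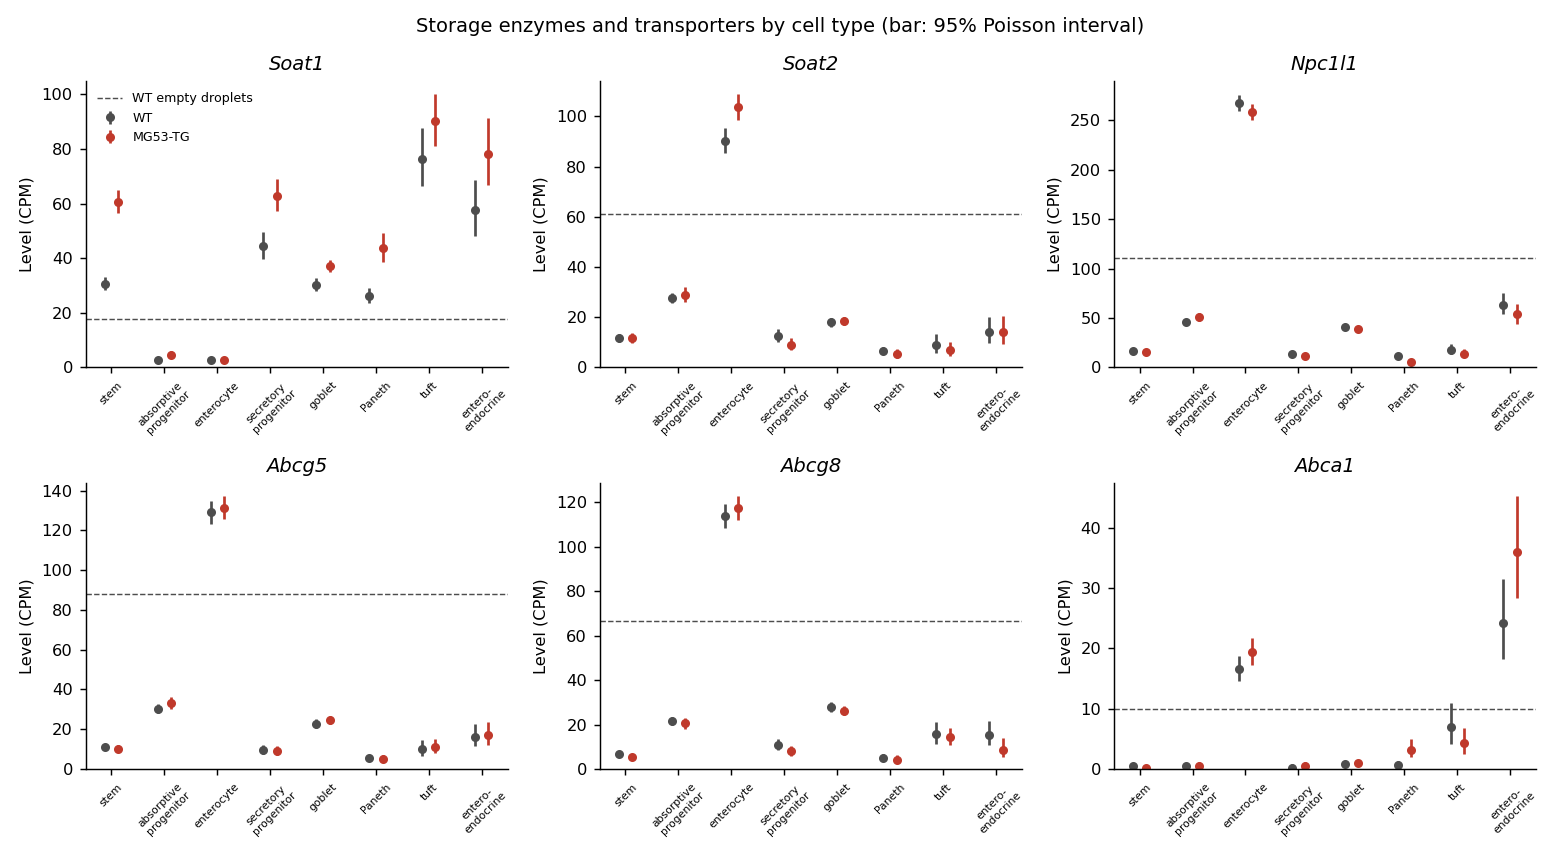
Level in CPM of the 2 esterification enzymes and 4 transporters in 8 cell types, WT in grey and MG53-TG in red, with 95% Poisson intervals. The dashed line is the level in WT empty droplets. Soat1 stands near 0 in enterocyte-like cells and above its WT level in MG53-TG stem-like cells (60.6 against 30.5 CPM), while Soat2, Npc1l1, Abcg5 and Abcg8 exceed the dashed line in enterocyte-like cells alone among the 8 types.

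Along the axis from crypt to villus, within a library, the synthesis genes had a median log2 ratio of stem-like over enterocyte-like cells of 0.41 in WT and 0.48 in MG53-TG, where the median of all genes was 0.36 and 0.31. These medians moved with the processing, between 0.046 and 1.12 in WT and between 0.17 and 1.19 for MG53-TG. The early steps had a median of 0.62 in WT and 0.59 for MG53-TG, with Hmgcs1 (0.070 and 0.11) and Mvd (0.28 and 0.30) under the median of all genes. Acat2 (2.83-fold in WT and 3.82-fold in MG53-TG) and Idi1 (2.59-fold and 2.79-fold) were at least 2-fold higher in stem-like cells. Enterocyte-like levels of Acat2 (11.6 and 7.62 CPM) and Idi1 (39.6 and 38.5 CPM) were under those of empty droplets (17.2 and 50.3 CPM). Their folds are therefore not measured ratios of expression. The same limit touched 13 of the 18 synthesis genes in enterocyte-like cells of at least 1 library. Late steps were mixed, and Sc5d was higher in enterocyte-like cells in both libraries (-0.85 and -0.98). Its stem-like levels (34.0 and 32.2 CPM) were under that of empty droplets (39.5 CPM), so these sizes are not measured ratios either. At least 2-fold above enterocyte-like cells were 3 members in each library, where 31.6% of all genes were in WT, and 31.2% for MG53-TG. At least 2-fold below were 6 members in WT and 5 in MG53-TG, where 15.7% and 16.9% of all genes were, namely Soat2 and the 4 transporters, with Srebf1 in WT (-1.28, and -0.85 in MG53-TG). Soat1 lay at the other end (log2 ratio 3.56 in WT and 4.54 for MG53-TG), but its enterocyte-like level of 2.59 and 2.60 CPM is under that of empty droplets. The stem-like levels of Soat2, the transporters and Srebf1 (10.1 and 10.7 CPM, against 19.9) are under theirs too. The sizes for these genes are therefore not measured ratios of expression.

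**Figure D5:**
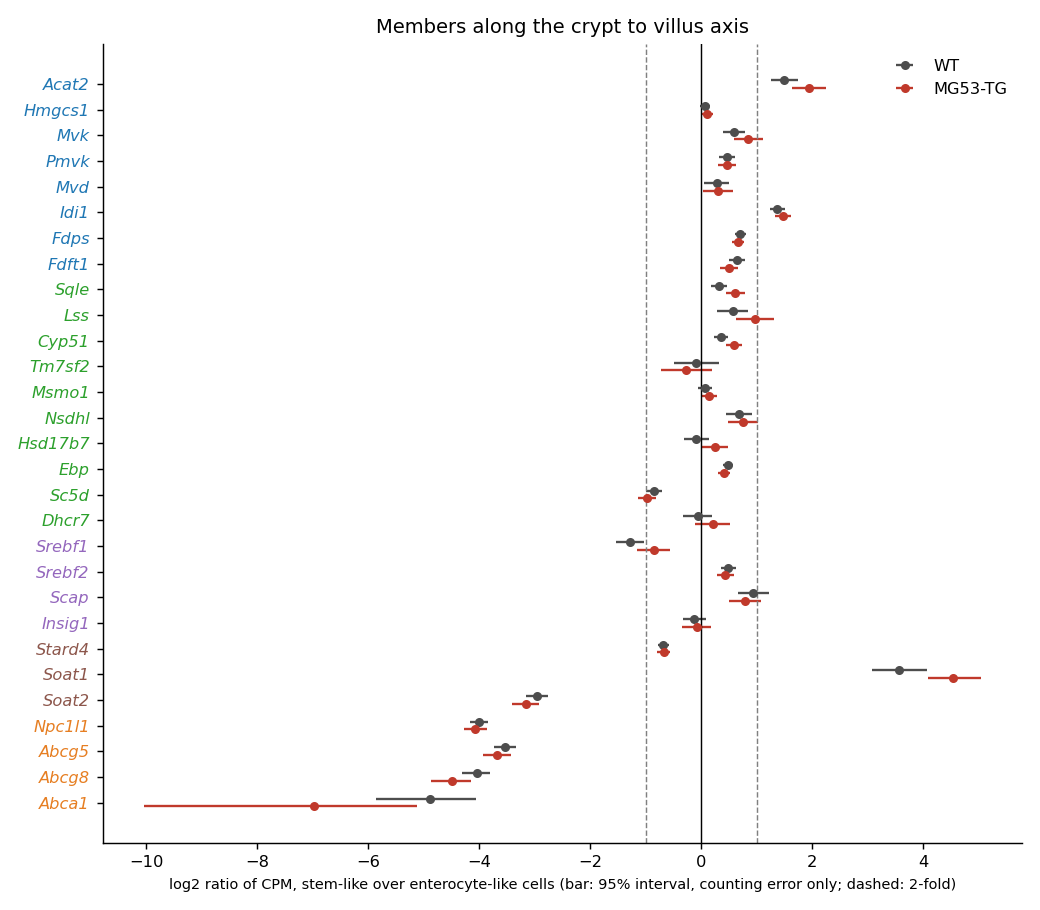
Log2 ratio of CPM in stem-like over enterocyte-like cells for each of the 29 genes, WT in grey and MG53-TG in red, with 95% intervals for counting error. Dashed lines mark 2-fold. Most synthesis genes lie between the dashed lines, Soat1 lies far to the right (3.56 and 4.54), and Soat2 and the transporters lie at -2.95 or below.

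Of 15 further genes of sterol handling, all passed the minimum in the epithelial sum, 9 were above 0 and 6 below, with a median of 0.075. The highest were Npc1, which lets cholesterol out of lysosomes (10.3 CPM in WT and 13.4 in MG53-TG, log2 ratio 0.38), and Stard3 (0.23). The lowest were the exporter Abcg1 (0.717 and 0.467 CPM, -0.62) and Scarb1, a receptor for high-density lipoprotein (-0.34). Of 12 SREBP targets in fatty acid synthesis, 11 passed, with 6 above 0 and 5 below and a median of 0.13. Me1, the malic enzyme that supplies NADPH, was highest (19.5 and 34.4 CPM, log2 ratio 0.82), followed by Aacs, which activates acetoacetate for lipid synthesis (0.47). The fatty acid desaturases Fads1 (-0.32) and Fads2 (-0.27) were lowest.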

How the data were processed

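The values deposited by the authors were UMI counts per gene and barcode from 10x Genomics 3′ libraries (version 3 kit), not normalised, aligned to mm10 per the labels. Per the file headers, Cell Ranger 4 made the WT counts, and the MG53-TG counts came from release 6.0.1. There were 2005718 barcodes for WT, empty droplets included, and 12361 for MG53-TG, the lowest with 500 UMIs, so program version and barcode filtering cannot be told apart from genotype. The submitters' notes also name Seurat.

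Kept were cells of 1354 UMIs or more and 200 genes or more whose mitochondrial share was 25% or less. The UMI minimum is stricter than that in the study's methods. The automatic threshold of Scrublet marked 1 WT and 2 MG53-TG cells, so the highest scores were removed at 0.8% per 1000 cells (438 and 212 cells). Both libraries were clustered together in scanpy 1.11.5 (30 components, 15 neighbours, Leiden at resolution 1), on 2000 variable genes ranked within each library. Any of the 29 members and Trim72 were dropped from these genes. This gave 26 clusters, named X-like from at least 3 markers of a fixed list. UMIs were summed per type and library and given as CPM. Levels have exact Poisson intervals, and a conditional binomial distribution gave exact intervals for ratios, checked on simulated counts. Genes needed 30 UMIs over both libraries for a ratio. A 3′ tag counts molecules, so no length scaling was applied, and levels are compared between types and libraries rather than between genes. Gene coordinates are from GENCODE M21 (GRCm38).

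The members and gene lists were chosen with earlier results of these data known. Named were all 29 members by role, the highest and lowest member of each type, and at most 2 highest and 2 lowest genes of each further list. The fatty acid list and the further sterol list served only as description. Clusters singled out in the text were chosen after their values were seen. Rebuilt cell type names may differ from those of the study. Alternatives tried were other scaling, averaging, pseudocount, minimum, doublet, mitochondrial, depth and clustering settings, and equal weight for each cluster, which was added after the data had been seen.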

Additional observations from a re-analysis of the deposited data

How the results depend on the processing

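With 1 library per genotype, differences between libraries cannot be told apart from genotype, and no replicate could be left out. No paired analysis was possible because each genotype has 1 library. Over 14 alternatives, no member came out at least 20% lower in the epithelial sum, and the count of members at least 25% higher went from 5 to 2 with scaling by the median of ratios, to 2 with equal weight for each cell type and to 1 with equal weight for each cluster, a setting chosen after the data had been seen. The median log2 ratio of the synthesis genes in the epithelial sum, 0.11, was 0.022 with median-of-ratios scaling and 0.022 with a mitochondrial limit of 50%, and it turned to -0.056 with equal weight for each cell type and to -0.079 with equal weight for each cluster. In those 2 settings the change of weights itself gives the turn, and the cause of the others was not tested.

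Medians within goblet-like (0.12 to 0.24), enterocyte-like (-0.24 to -0.020) and stem-like cells (-0.15 to 0.037) stayed within their error bands under the 13 alternatives. Stem-like over enterocyte-like medians moved most. In WT, 0.41 became 0.052 with median-of-ratios scaling, 0.66 with the mean of single-cell CPM, 0.59 with doublets kept, 1.12 with a mitochondrial limit of 50%, 0.58 with at least 500 UMIs, 0.046 with resolution 2 and 0.65 with each library clustered alone. In MG53-TG, 0.48 became 0.17 with median-of-ratios scaling, 1.19 with the 50% limit and 0.25 with resolution 2. Over the same 14 settings the epithelial log2 ratio of Soat1 was between 0.47 and 0.72, that of Hmgcs1 between 0.21 and 0.54, and those of Npc1l1, Ebp, Scap and Srebf1 changed sign in 4 each. Depth limits rare genes, and Abca1 reached the minimum in 4 of 8 types.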
